A study of Mus musculus with 6 samples.

Results

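Cells of the mouse lymphoid line Ba/F3, which needs interleukin-3 to grow, were compared in 2 forms that express human RPL10 cDNA, the wild type (WT) or the R98S mutant, which carries serine in place of arginine at residue 98 of this ribosomal protein. Both groups carried a retroviral RPL10 cDNA and a short hairpin RNA against the endogenous mouse Rpl10, so cells without these were not measured here. Each group held 3 monoclonal cultures, each raised from 1 cell and sequenced as 1 library (WT clones 28, 29 and 36, and R98S clones 11, 13 and 35), and all cells received cycloheximide at 100 µg/ml for 5 min before RNA isolation. The genes described are 9 phospholipid flippase genes of the 41255 genes listed, namely Atp8a1, Atp8b2, Atp8b4, Atp9a, Atp9b, Atp10a, Atp10d and Atp11b, which encode P4-type ATPases, and Tmem30a, which encodes a subunit that most of these ATPases share. They were picked by symbol with earlier results on the R98S to WT difference of these same libraries in view. Their differences are therefore a description with standard errors (SE) and no p-value.

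P4-type ATPases use ATP to move phospholipids from the outer or lumenal leaflet of a membrane to the cytoplasmic leaflet. In this way they keep phosphatidylserine and phosphatidylethanolamine on the inner side of the plasma membrane, where loss of this order on dying cells is a signal for their removal. Most of them leave the endoplasmic reticulum only when bound to a CDC50 protein, of which Tmem30a (CDC50A) is the broadly expressed form, while Atp9a and Atp9b do not need it.

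The libraries held between 21786776 and 24204991 reads on genes, and values are normalized read counts, reads scaled by the size factor of their library. The target of the hairpin, Rpl10, had 2637 ± 655 normalized counts in WT and 2509 ± 580 in R98S clones (SD, n = 3). The paper chose cultures by their knock-down of endogenous Rpl10, measured by qPCR. Whether reads of the human RPL10 cDNA were counted under this gene was not tested, so these counts do not measure the knock-down. Spearman's rho across tested genes, given as a description, was between 0.980 and 0.991 for pairs of libraries within a group and between 0.958 and 0.965 across groups, so no library stood apart from its group. The interleukin-3 receptor genes Csf2rb, Csf2rb2 and Il3ra were present (means of at least 698.4 normalized counts in each group), but Csf2rb and Csf2rb2 rose in R98S clones (0.53 and 0.62 on the log2 scale, limma adjusted p = 0.0509 and 0.0178). The leukocyte marker Ptprc fell (-1.33, limma adjusted p = 0.00894). Of 10 B lineage markers only Cd79a and Cd79b passed the filter on low values, of which Cd79b rose (1.22, limma adjusted p = 0.0617), and Pax5 had a mean of at most 1.06. For Cd79b the groups overlapped, with 396.3 normalized counts in WT clone 28 and 385.8 in R98S clone 35. Summed levels of the 10 lay between 1295 and 1404 in WT and between 1645 and 1965 in R98S clones. Summed levels of 7 T lineage markers lay between 53.2 and 106.1 in WT and between 152.7 and 179.2 in R98S clones, with Cd4 and Thy1 at means of at most 0.667 and 0.341. Both T lineage markers that were tested rose, Cd3d from 13.3 to 63.8 (2.17, limma adjusted p = 0.0112) and Lck from 42.6 to 94.3 normalized counts (1.16, limma adjusted p = 0.0355). Others were too low to be tested and did not all rise. Cd3e (means of 2.06 in WT and 0.308 in R98S clones) and Cd3g (16.4 and 1.27) were lower in R98S clones. Cd8a (1.34 and 3.41) was higher. Cd3g reached 43 reads only in WT clone 36. Summed levels of 10 mast cell and myeloid markers lay between 260.1 and 448.1 in WT and between 224.5 and 627.3 in R98S clones, with Fcer1a at 0 in all libraries. Of 5 tested, 1 was called, Lyz2, which was lower (-3.34, limma adjusted p = 0.0366). Its reads were 4, 23 and 43 in WT (clones 28, 29, 36) and 1, 0 and 2 in R98S (clones 11, 13, 35). Lyz2 passed the filter only through the WT clones, so it had to differ. Cpa3, Hdc, Ms4a2 and Mcpt8, tested but not called, had log2 fold changes of 1.43, 0.44, -0.57 and -0.61 (limma adjusted p = 0.372, 0.624, 0.464 and 0.801). Erythroid markers (5 genes) summed to between 411.6 and 908.7 in WT and between 576.4 and 797.5 in R98S clones, and stromal, epithelial and endothelial markers (6 genes) to between 3967 and 4488 in WT and between 3201 and 5345 in R98S clones, nearly all of it Pecam1. Of the erythroid markers Hba-a1 was called lower (-3.52, limma adjusted p = 0.0389). Its reads were 29, 8 and 69 in WT (clones 28, 29, 36) and 0, 6 and 1 in R98S (clones 11, 13, 35). Hba-a1 passed the filter only through the WT clones, so it had to differ. Klf1 and Epor, also tested, had log2 fold changes of 0.42 and 0.0062 (limma adjusted p = 0.508 and 0.984). The part of these differences in the flippase values was not tested.

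The window around the start of Atp8b4 is shown because this gene had the largest difference among the 9 genes, beside that of Atp11b, the ATPase among them with the highest level per kilobase, and of Atp8b5, a family gene outside the 9 that was higher in R98S clones. Each window runs from 250 bases before to 50 bases after a RefSeq transcript start (GRCm38.p6, 5′ to 3′ on the strand of the gene), and capitals mark CpG dinucleotides. The windows are chr2:126491504-126491803 (minus strand) for Atp8b4, chr3:35753813-35754112 (plus strand) for Atp11b and chr4:43266909-43267208 (plus strand) for Atp8b5.
Atp8b4: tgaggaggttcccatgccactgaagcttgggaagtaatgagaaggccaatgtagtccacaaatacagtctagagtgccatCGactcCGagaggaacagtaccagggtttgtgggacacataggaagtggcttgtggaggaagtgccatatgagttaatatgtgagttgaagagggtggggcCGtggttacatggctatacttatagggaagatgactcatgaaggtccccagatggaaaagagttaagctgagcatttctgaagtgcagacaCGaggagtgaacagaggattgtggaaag
Atp11b: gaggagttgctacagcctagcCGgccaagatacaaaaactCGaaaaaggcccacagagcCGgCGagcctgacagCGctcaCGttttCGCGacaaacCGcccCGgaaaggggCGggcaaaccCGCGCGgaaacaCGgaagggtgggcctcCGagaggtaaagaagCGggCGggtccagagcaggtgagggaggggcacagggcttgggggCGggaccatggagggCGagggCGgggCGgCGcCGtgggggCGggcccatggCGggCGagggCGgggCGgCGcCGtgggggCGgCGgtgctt
Atp8b5: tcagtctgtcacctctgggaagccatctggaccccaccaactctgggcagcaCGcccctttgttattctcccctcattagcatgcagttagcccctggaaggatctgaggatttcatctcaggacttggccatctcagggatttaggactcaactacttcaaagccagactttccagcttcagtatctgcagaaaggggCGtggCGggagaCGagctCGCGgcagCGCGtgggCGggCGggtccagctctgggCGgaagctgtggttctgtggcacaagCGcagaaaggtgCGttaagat

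The Atp8b4 window held 4 CpG dinucleotides and 48.0% G and C, the Atp11b window 33 and 70.7%, and the Atp8b5 window 13 and 57.0%. Over 32841 windows of all genes the median was 7 CpG dinucleotides, and 38.0% held no more than the Atp8b4 window. The ratio of observed to expected CpG was 0.266 for Atp8b4, whereas every window of Atp8a1, Atp8b2, Atp10a, Atp11b and Tmem30a was at or above 0.6, as were 35.8% of all windows. Atp9a had 4 listed starts, with ratios from 0.179 to 1.13. In all, 11 windows of 7 of the 9 genes were listed. The Atp8b4 start coincides with the start of a GENCODE transcript, but the gene has 5 annotated transcripts and extends farther upstream, and gene counts do not show which start was used. Short motifs were searched on both strands. They were chosen after the windows had been read, so their counts beside those of all windows are a description and no test. The AP-1 motif TGACTCA occurred in 1 of the 11 windows, that of Atp8b4, at 38 bases before the start, and in 5.20% of all windows. The GATA motifs AGATAA or TGATAA were found in 1 of the 11 (Tmem30a) and in 18.6% of all windows, the RUNX motif TGTGGT in 2 and 16.8%, the E-box CANNTG in 8 and 72.3%, and the STAT motif TTCNNNGAA in 0 and 8.30%. A match is a run of letters, not a bound site.

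Across the flippase genes, R98S clones had less Atp8b4, Atp9a, Atp11b and Tmem30a mRNA than WT clones, by 1.30-fold (Tmem30a) to 8.44-fold (Atp8b4), while the values of Atp8a1, Atp8b2, Atp9b and Atp10a overlapped between the groups. Genes were fitted with limma on log2(normalized count + 1), and the 11550 genes whose mean over the 6 libraries reached 10 normalized counts were tested. Of the 9 flippase genes 8 passed this filter. At an adjusted p under 0.1, the threshold of the study, 4 of the 8 were called and all 4 were lower in R98S clones, beside 23.9% of all tested genes called and 13.1% called lower. The same 4 were called by edgeR and by DESeq2 on the reads recovered from the values, which called 23.8% and 26.9% of all tested genes. For the same 4 genes the values of WT and R98S clones did not overlap, which held for 37.3% of all tested genes. Since the genes were chosen with this contrast in view, nothing is read from these counts. The median log2 fold change of the 8 genes was -0.31 and that of all tested genes -0.011. In cultures, fewer cells with a transcript and less transcript per cell cannot be told apart.

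**Figure D1:**
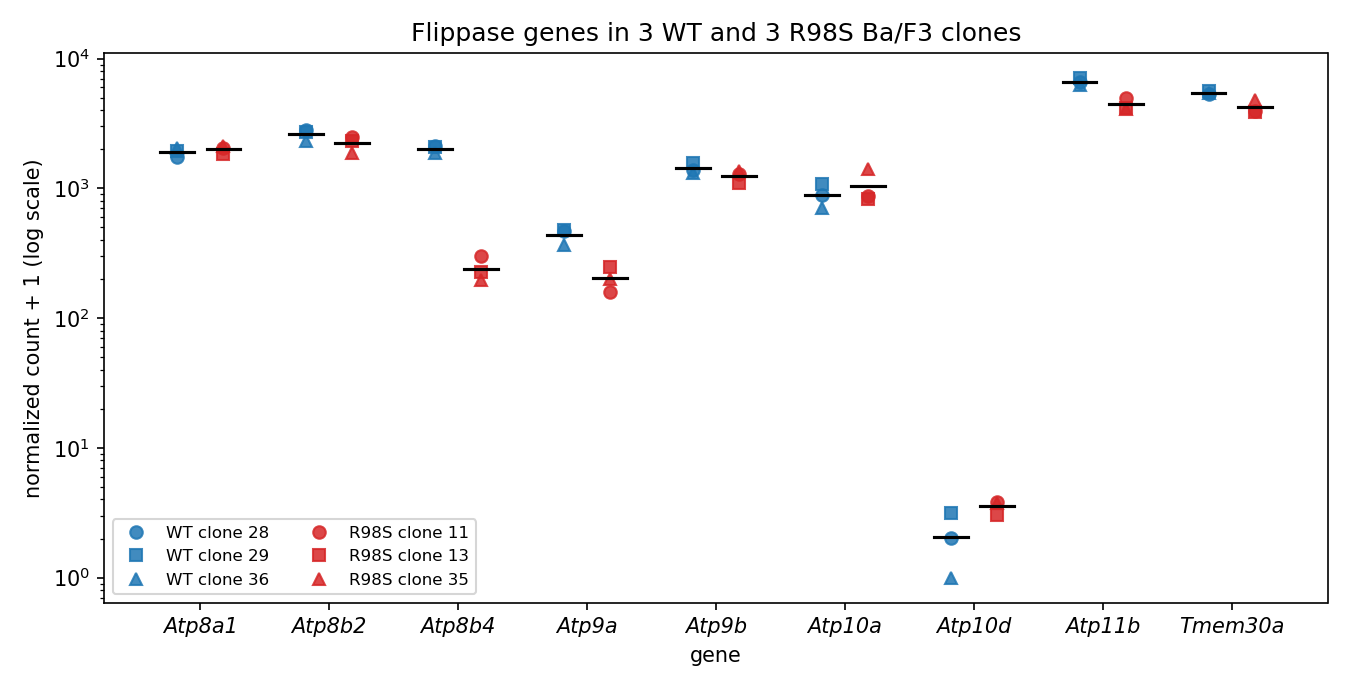
Normalized read counts plus 1 (log axis) of the 9 flippase genes in each WT (blue) and R98S (red) clone, with the mean of each group as a black line. Atp8b4 lies at 1885 or above in WT and at 299.3 or below in R98S clones, while Atp10d is near 0 in every clone.

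Atp8b4 (ENSMUSG00000060131, chromosome 2, 126320973 to 126500674, minus strand, GRCm38) encodes a class 1 P4-ATPase of leukocytes. It measured 2118, 2078 and 1885 normalized counts in WT (clones 28, 29, 36) against 299.3, 224.5 and 197.1 in R98S (clones 11, 13, 35). The lowest WT value was 6.30 times the highest R98S value, so the groups lay far apart relative to the spread within them. With group means of 2027 ± 124 (WT) and 240.3 ± 52.9 (R98S, SD, n = 3), its level was 8.44-fold lower in R98S clones, a log2 fold change of -3.09 (SE 0.17). By log2 fold change Atp8b4 ranked 95 from the lowest of the 11550 tested genes, and 4.94% of tested genes had a log2 fold change of -1 or lower. Its log2 fold change stayed between -3.26 and -2.96 over 17 fits, which are the main fit and those with other settings, tools or clones left out. No exon of Atp8b4 overlapped an exon of another annotated gene on either strand.

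With all clones, neither gene next to Atp8b4 was called, and both had higher means in R98S clones. The nearest tested gene on one side, Gm17555, had 33.1 ± 4.83 normalized counts in WT and 53.4 ± 1.60 in R98S clones (log2 fold change 0.68, SE 0.25, limma adjusted p = 0.107). On the other side, Hdc, which encodes the enzyme that makes histamine, had 107.9 ± 102 and 113.9 ± 29.2 (a difference of 0.44 on the log2 scale with SE 0.56, limma adjusted p = 0.624). Without WT clone 29 that difference was 1.17 (limma adjusted p = 0.0644). Over the 30 tested genes closest to Atp8b4 the log2 fold changes had their median at 0.11, with 1 gene called lower and 1 higher. With the median shift of these 30 genes subtracted in each library, the log2 fold change of Atp8b4 was -3.18.

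The profile of Atp8b4 over the 6 libraries was set beside those of 9503 other tested genes with a mean of at least 100, as the root mean square distance between log2 values centred on their mean. The closest were Lhfpl2 (distance 0.35), Adam8, a membrane metalloprotease of leukocytes (0.35), Olr1, a lectin-like receptor for oxidised lipoprotein (0.36), Rgs2, a regulator of G protein signalling (0.38), and Ndrg1 (0.41). Adam8 went from 3817 ± 553 to 420.1 ± 117 normalized counts (log2 fold change -3.20) and Ndrg1 from 6837 ± 1949 to 618.3 ± 327 (log2 fold change -3.55). As the measure favours genes with the same difference between groups, their fold changes are fixed in part by the choice.

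**Figure D2:**
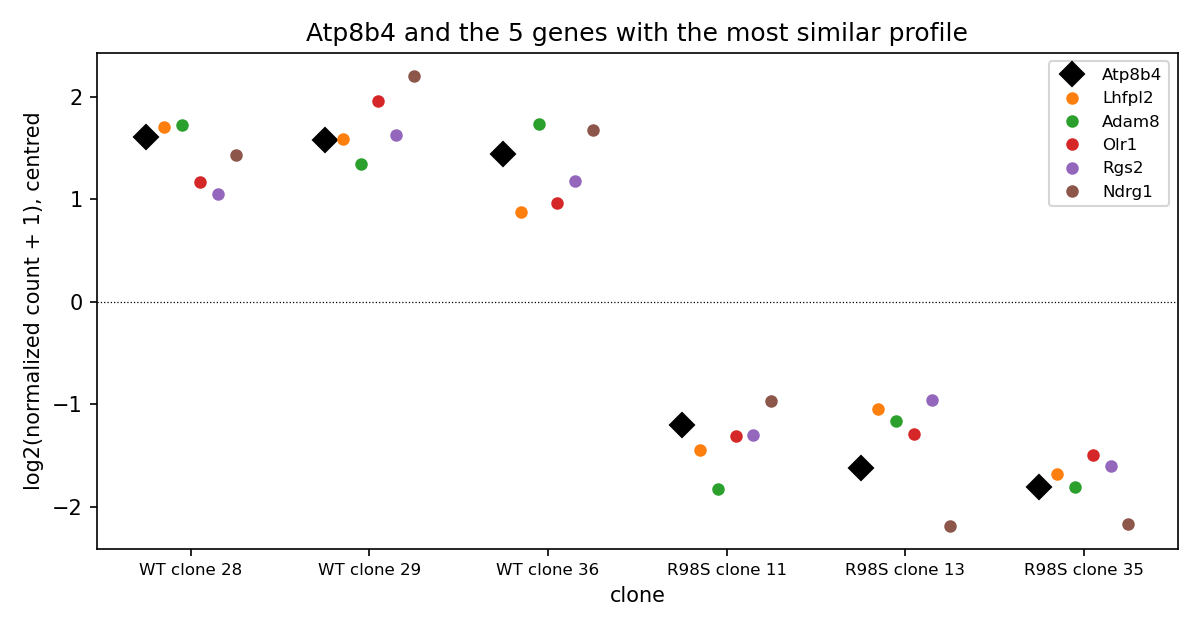
Log2(normalized count + 1), centred on the mean of each gene over the 6 clones, for Atp8b4 (black diamonds) and the 5 genes with the closest profile, by clone. All 6 genes lie above 0 in the 3 WT clones and below 0 in the 3 R98S clones.

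Atp9a (chromosome 2, 168634438 to 168742409, minus strand), a P4-ATPase of endosomes and the trans-Golgi network, had 468 (clone 28), 475 (clone 29) and 363.3 (clone 36) normalized counts in WT, and 158.6 (clone 11), 248 (clone 13) and 198.9 (clone 35) in R98S cells. Every R98S clone was below every WT clone. The means were 435.4 ± 62.6 and 201.8 ± 44.8 (SD, n = 3), a 2.16-fold lower level in R98S clones and a log2 fold change of -1.12 (SE 0.21). For the 30 tested genes closest to Atp9a the median was 0.11.

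Atp11b (chromosome 3, 35754106 to 35856276, plus strand), a flippase for aminophospholipids in endosomal and Golgi membranes, had 6604, 7096 and 6229 normalized counts in the WT clones (28, 29, 36) against 5009, 4198 and 4119 in the R98S clones (11, 13, 35). The groups did not overlap. The R98S mean of 4442 ± 493 was 66.9% of the WT mean of 6643 ± 435 (SD, n = 3, log2 fold change -0.58, SE 0.11). Here the neighbourhood went the other way, with a median log2 fold change of 0.14 over the 30 nearest tested genes, of which 8 were called higher and 3 lower. With this shift subtracted, the log2 fold change of Atp11b was -0.78.

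Tmem30a (chromosome 9, 79768943 to 79793507, minus strand), the subunit that carries most of these ATPases out of the endoplasmic reticulum, measured 5316, 5609 and 5455 normalized counts in WT (clones 28, 29, 36). R98S clones 11, 13, 35 measured 3967, 3863 and 4788. The WT clones were nearly equal, while R98S clone 35 lay between the WT clones and the other R98S clones. The WT mean of 5459.8 ± 146 was 1.30 times the R98S mean of 4206 ± 507 (SD, n = 3, log2 fold change -0.38, SE 0.11). This call was lost without WT clone 28 (-0.40), WT clone 29 (-0.36) or R98S clone 11 (-0.34), and at an adjusted p under 0.05. Tmem30b and Tmem30c, the other CDC50 genes, had at most 2 and 5 reads in any library.

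For the other 4 genes that were tested the groups overlapped. Atp8b2 (chromosome 3, 89939481 to 89963508), a flippase for phosphatidylcholine at the plasma membrane, measured 2838, 2706 and 2324 normalized counts in WT (clones 28, 29, 36) against 2498, 2333 and 1873 in R98S (clones 11, 13, 35) (log2 fold change -0.24, SE 0.14). Atp9b (chromosome 18), a protein of the trans-Golgi network related to Atp9a, had 1391, 1573 and 1311 in WT, and 1296, 1102 and 1364 in R98S clones in the same order (log2 fold change -0.19, SE 0.13). Both means were lower in R98S clones by less than 2 SE.

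Atp8a1 (chromosome 5, 67618140 to 67847434), which flips phosphatidylserine on endosomes, measured 1749, 1932 and 2056 normalized counts in WT (clones 28, 29, 36) against 2052, 1828 and 2124 in R98S (clones 11, 13, 35). The log2 fold change was 0.066 (SE 0.11). Its surroundings differed more than the gene did, as the median over the 30 closest tested genes was -0.27 and 13 of them were called lower, beside 13.1% of all tested genes. With this shift subtracted, Atp8a1 was called higher in R98S clones, with a log2 fold change of 0.34. Atp8a1 shares 138 exon bases with Shisa3 and 66 with Gm15477, both on the opposite strand, and whether reads were counted by strand was not given in the sources used here.

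Atp10a (chromosome 7, 58656166 to 58829420), a phosphatidylcholine flippase, varied most among the 8 tested genes. It measured 883.7, 1084 and 708.5 normalized counts in WT (clones 28, 29, 36) against 870.7, 829.8 and 1403 in R98S (clones 11, 13, 35). The coefficient of variation was 21.1% in WT and 30.9% in R98S clones, whereas for Tmem30a it was 2.68% and 12.0%. The log2 fold change of 0.19 (SE 0.23) rested on R98S clone 35, and without that clone it was -0.048. Atp10d, a flippase for glucosylceramide, was not tested. It had 1, 2 and 0 reads in WT clones 28, 29 and 36 and 3, 2 and 3 reads in R98S clones 11, 13 and 35. Each of these counts is at or under the floor of 3 reads (2.78 to 3.22 normalized counts, depending on the library), at which expression cannot be told from 0, so a difference was not detectable at this depth.

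**Figure D3:**
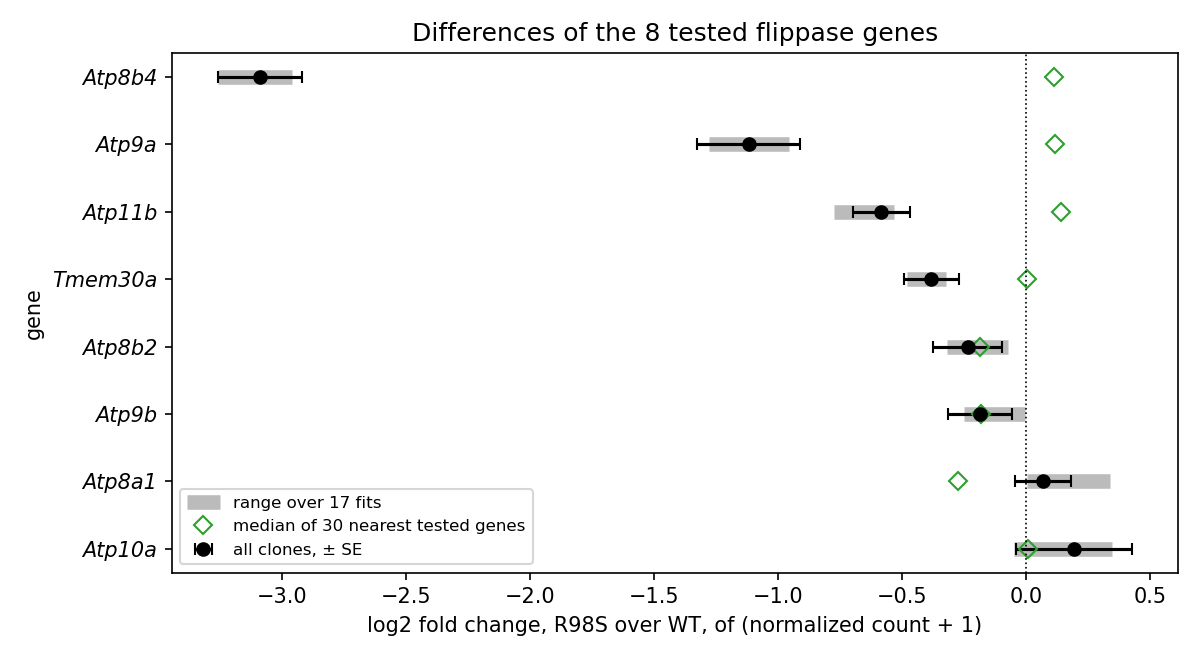
Log2 fold change (R98S over WT) of the 8 tested flippase genes with its SE (black), the range over 17 fits, the main fit and those with other settings, tools or clones left out (grey), and the median log2 fold change of the 30 nearest tested genes (green diamonds). Atp8b4, Atp9a, Atp11b and Tmem30a lie below 0 in every fit while the genes around them have medians above 0 (only 0.0021 for Tmem30a). Atp8b2 and Atp9b also lie below 0 in every fit, and the genes around them have medians below 0.

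To compare the genes with each other, normalized counts were divided by the length of the longest annotated transcript. In WT clones the level per kilobase (kb) was highest for Tmem30a (1493 ± 40.0, SD, n = 3), followed by Atp11b (1051 ± 68.8), Atp8b2 (459.7 ± 46.8), Atp8b4 (356.1 ± 21.8), Atp9b (266 ± 25.1), Atp8a1 (233.8 ± 18.9), Atp10a (164.6 ± 34.7) and Atp9a (116.8 ± 16.8). The ranges of the WT clones overlapped only for the neighbours Atp9b and Atp8a1. In R98S clones the order was Tmem30a (1149.8 ± 138), Atp11b (702.6 ± 78.0), Atp8b2 (391.7 ± 56.7), Atp8a1 (244.7 ± 18.9), Atp9b (234.1 ± 25.3), Atp10a (190.9 ± 59.0), Atp9a (54.1 ± 12.0) and Atp8b4 (42.2 ± 9.29). There the ranges overlapped for Atp8a1 with Atp9b and with Atp10a, for Atp9b with Atp10a and for Atp9a with Atp8b4. Atp8b4 thus stood at rank 4 of 9 in WT and at rank 8 in R98S clones, and Atp10d at rank 9 in both. With coding length in place of transcript length Atp8b4 was at ranks 4 and 7.

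The summed level per kb of the 8 ATPases came to 2676, 2820 and 2448 in WT (clones 28, 29, 36) against 1979, 1762 and 1841 in R98S (clones 11, 13, 35). The R98S sums were all lower, at 0.703 of the WT mean. Atp8b4 made up 13.9%, 12.9% and 13.5% of the sum of the 8 ATPases in WT clones and 2.66%, 2.24% and 1.88% in R98S clones. The share of Atp11b was 39.7% ± 0.615 in WT and 37.7% ± 2.33 in R98S clones, and that of Atp8a1, whose own level differed little, was 8.88% ± 1.22 and 13.2% ± 0.821 of the smaller sum.

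**Figure D4:**
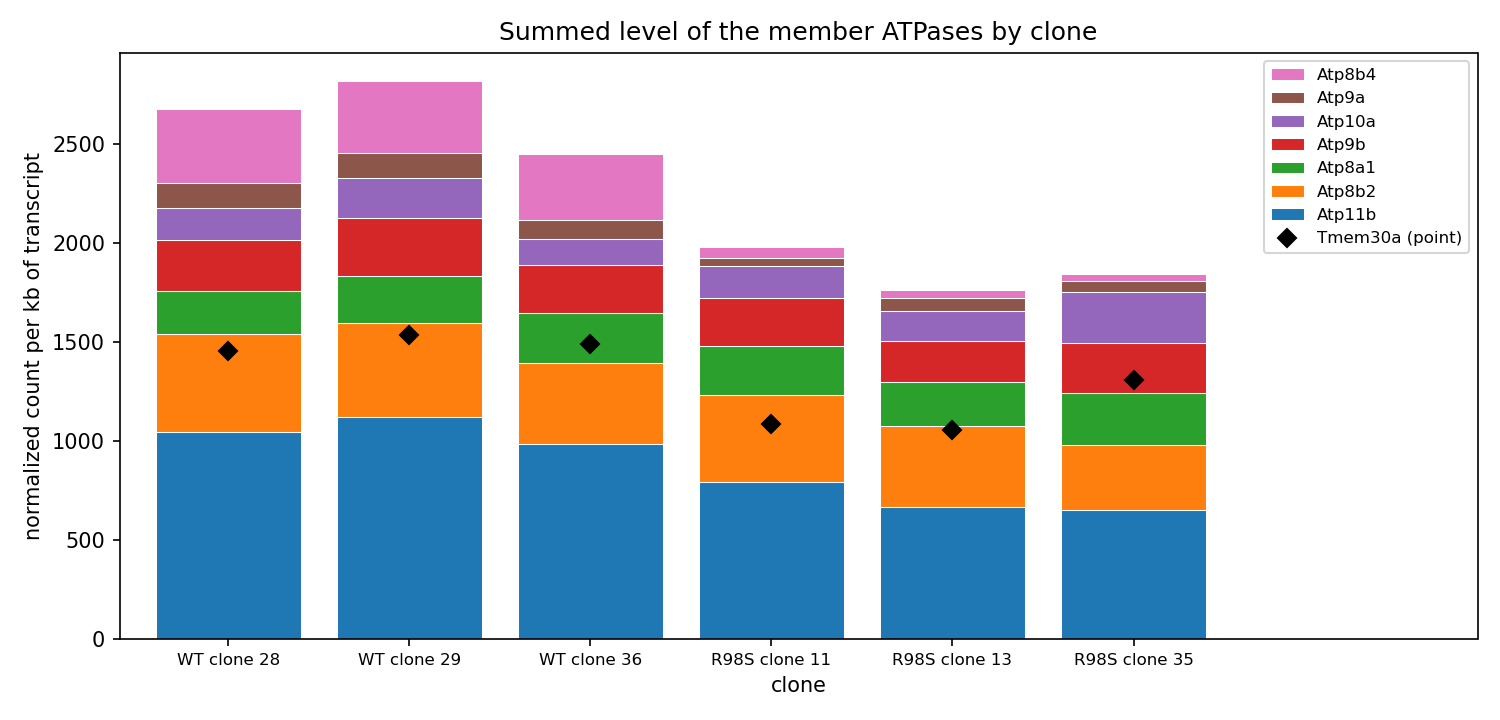
Stacked bars give the normalized count per kb of transcript of 7 flippase ATPases in each clone (Atp10d, below 1, is not visible), and black diamonds the level of Tmem30a on the same axis. The bars reach at least 2448 in WT and at most 1979 in R98S clones, and the Atp8b4 segment on top is 13.5% ± 0.480 of the bar in WT and 2.26% ± 0.389 in R98S clones.

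Of 8 further family genes analysed here, 2 passed the filter. Atp11a, a flippase that returns phosphatidylserine to the inner leaflet of the plasma membrane, measured 2967, 3507 and 2242 normalized counts in WT (clones 28, 29, 36) against 2632, 1974 and 1712 in R98S (clones 11, 13, 35) (a log2 difference of -0.46 with SE 0.20, limma adjusted p = 0.161). Without WT clone 36 it passed the threshold (-0.64, limma adjusted p = 0.0717). Atp8b5, known from the testis, had 1, 3 and 2 reads in WT clones 28, 29 and 36 and 59.1, 48 and 40.7 normalized counts in R98S clones 11, 13 and 35. It was at least 15.9-fold higher in R98S clones, computed against the floor of 3 reads in each WT library, and it passed the filter only through the R98S clones, so it had to differ. Of the 30 tested genes nearest to Atp8b5, 25 had a positive log2 fold change and 16 were called higher, beside 10.7% of all tested genes. Atp8a2, Atp8b1, Atp8b3 and Atp10b had means of at most 7.84, 3.60, 2.09 and 4.53 normalized counts in either group.

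Genes that act with flippases or against them were taken from lists, and are given by their counts beside the 23.9% of all tested genes called. Of 9 tested genes for proteins that bind flippases or place them on Golgi and endosomal membranes, 2 fell, Ehd1, an endosomal membrane remodelling protein (log2 fold change -0.70, limma adjusted p = 0.0339), and Snx3, a retromer adaptor (-0.39, limma adjusted p = 0.0803), and 0 rose (median log2 fold change -0.14). Of 12 tested genes for scramblases and their partner chains, which let lipids move in both directions, 3 fell and 2 rose (median log2 fold change -0.0082). Those that fell were Bsg, a partner chain of Xkr8 (-0.83, limma adjusted p = 0.00213), Atg9a (-0.54, limma adjusted p = 0.0277) and Vmp1 (-0.51, limma adjusted p = 0.0504), of which the latter pair serve autophagy. The scramblases of the plasma membrane Ano6 and Xkr8 had log2 fold changes of 0.035 and 0.33 (limma adjusted p = 0.858 and 0.352). Plscr2 and Plscr4, which rose, had means of at most 41.2 and 26.0 normalized counts. Plscr4, with a mean of 7.85 in WT, passed the filter only through the R98S clones, so it had to differ. Of 6 tested ABC transporters that move lipids outward, 2 fell (median -0.64), Abcc1 (-0.98, limma adjusted p = 0.00636) and the cholesterol exporter Abcg1 (-0.92, limma adjusted p = 0.0287).

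Of 8 tested genes for the synthesis of phosphatidylserine and phosphatidylethanolamine 2 rose, Pcyt2 (0.79, limma adjusted p = 0.00569) and Ptdss2, a phosphatidylserine synthase (0.34, limma adjusted p = 0.0835), and the median was -0.077. Of 5 tested genes for phosphatidylcholine synthesis 2 fell (median -0.21), Chpt1 (-1.24, limma adjusted p = 0.0568) and Pcyt1b, which had 41.1 ± 12.5 and 9.79 ± 5.19 normalized counts. Pcyt1b passed the filter only through the WT clones, so it had to differ. Of 7 tested annexins, which bind acidic phospholipids in the presence of calcium, 3 fell and 0 rose (median -0.48). These were Anxa2 (-1.72, limma adjusted p = 0.0048), Anxa4 (-0.99, limma adjusted p = 0.00967) and Anxa5 (-0.77, limma adjusted p = 0.0803). Of 14 tested P-type ATPases that pump ions or other cargo, 3 fell and 0 rose (median -0.23). They were the plasma membrane calcium pump Atp2b1 (-1.67, limma adjusted p = 0.00139) and the copper pumps Atp7a (-0.56, limma adjusted p = 0.0389) and Atp7b (-1.59, limma adjusted p = 0.0244).

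Plscr2, Plscr4, Pcyt1b, Ano6 and Xkr8 lie outside the rule for named genes and were chosen after their values were seen. A fit with a clone left out holds fewer libraries, and over all genes 1322 to 3213 were then called instead of 2755. A lost call therefore does not show that the difference rested on that clone. Several of the calls given above were lost in this way, as the limma adjusted p passed 0.1 when a clone was left out. This was so for Atg9a without WT clone 28 (0.107), for Atp7a without WT clone 28 (0.131) or 29 (0.147) and for Chpt1 without WT clone 28 (0.144) or 29 (0.133). Ehd1 (0.101 to 0.110) and Vmp1 (0.133 to 0.160) lost the call without WT clone 28 or 29 or R98S clone 11 or 35. Anxa5 (0.132 to 0.233) and Ptdss2 (0.126 to 0.246) lost it without WT clone 28, 29 or 36 or R98S clone 11 or 35, and Snx3 (0.125 to 0.200) without WT clone 28, 29 or 36 or R98S clone 11 or 13. Other settings also ended calls. Snx3 lost its call with no filter on low values, equal totals, equal upper quartiles, no intensity trend, edgeR or the regional shift subtracted (adjusted p from 0.101 to 0.134). Anxa5 lost it with edgeR (0.127) or no trend (0.138), and Ptdss2 with no filter (0.184) or the regional shift subtracted (0.907, log2 fold change -0.020).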

How the data were processed

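RNA of 6 monoclonal Ba/F3 cultures (3 RPL10 WT, 3 RPL10 R98S) was sequenced. The submitters' processing notes name Bowtie2, TopHat, SAMtools, HTSeq and DESeq2 and the build GRCm38 (mm10). Reads with a mapping quality of at least 10 were counted on exons, while strand setting and annotation release were not given in the sources used here. The deposited signal is the read count per gene divided by the DESeq2 size factor of each library, as the authors computed it, so it is not corrected for gene length. Dividing by the value of 1 read gave whole reads for 100% of values above 0 (tolerance 0.01), and these sum to 21786776 to 24204991 per library. A count of 3 reads was taken as the floor, which covers counting error only.

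Because the values are normalized, groups were compared with limma 3.58.1 (R 4.3.3, intensity trend) on log2(normalized count + 1) over 11550 genes with a mean of at least 10, with Benjamini-Hochberg adjustment and a threshold of 0.1. Fold changes on this scale understate those of low genes. P-values set the difference between group means against the spread between these clones, which limma moderates with that of other genes. Alternatives were pseudocounts of 0.5 and 5, no filter or a minimum mean of 50, equal totals or upper quartiles, no trend, edgeR 4.0.16 and DESeq2 1.42.0 on recovered reads, subtraction of a regional shift (the median over the 30 closest tested genes in each library), each clone left out, a threshold of 0.05, and coding length in place of transcript length. The code of the fits was also run on simulated counts with the same dispersion for every gene. The spread of these clones differs by gene, so that run is a check of the code only. Gene positions and lengths came from GENCODE M21 (GRCm38), and windows around starts from RefSeq (GRCm38.p6, 7 of the 9 genes matched).

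Named genes were the 9 flippase genes, 8 other family genes, up to 4 called genes with a mean of at least 100 per pathway list, the 5 genes closest in profile to Atp8b4, its nearest tested neighbours and Rpl10. The 9 genes and the lists were chosen with earlier results of these data known, and the motifs after the windows had been read. Some genes of these lists are not reported here.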

Additional observations from a re-analysis of the deposited data

How the results depend on the processing

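There were 136 alternative values for the 8 tested flippase genes, counting the threshold of 0.05, which can change the call but not the fold change. Of these, 130 kept direction and call, 4 lost the call (all Tmem30a), 1 gained it (Atp8a1, 0.34, with the regional shift subtracted) and 1 reversed (Atp10a, log2 fold change -0.048 without R98S clone 35). The number of flippase genes called was 3 to 4 with a clone left out, 4 with edgeR and with DESeq2, and 5 with the regional shift subtracted. Over all genes, 1322 to 3213 were called with a clone left out instead of 2755, with 1322 without WT clone 28, 1457 without WT clone 29 and 1560 without R98S clone 11, and 1722 at an adjusted p under 0.05. Of the other family genes 1 to 2 were called with a clone left out (2 without WT clone 36, which added Atp11a), and 0 of 1 tested by limma at a minimum mean of 50, where Atp8b5 was not tested (0 at an unadjusted p under 0.05, and 0 by edgeR or DESeq2). Of the pathway genes, 10 to 21 were called with a clone left out instead of 19, with 10 without WT clone 28 and 10 without WT clone 29, and 12 at an adjusted p under 0.05. For the other 26 named genes, 387 of 440 values kept direction and call, 42 lost it, 6 gained it and 5 reversed. The reversed log2 fold changes were -0.020 for Ptdss2 and 0.039 for Rpl10 with the regional shift subtracted, and for Rpl10 0.0075, 0.080 and 0.13 without WT clone 28, WT clone 29 and R98S clone 13 (-0.29 to 0.13 over the clones left out). The cause was not tested. With coding length, 7 of 9 flippase genes kept their rank over all libraries. No paired analysis was possible because the WT and R98S clones carry different numbers. Depth limits Atp10d and the other family genes near the floor of 3 reads.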
